A study of Mus musculus with 12 samples.

Results

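Genes of the synaptonemal complex and of meiotic cohesin, 9 in number, were followed across 4 isolated mouse germ cell types: Sycp1, Sycp2, Sycp3, Syce1, Syce2, Rec8, Smc1b, Stag3 and Terb1. They were chosen by gene symbol in the annotation of 3 Affymetrix designs (U74Av2, U74Bv2 and U74Cv2). Of these 9 genes 7 had at least 1 probe set, out of 15964 genes named on the arrays. The 7 genes had 11 probe sets, 4 on U74Av2, 7 on U74Cv2 and 0 on U74Bv2. No probe set carried the symbols Sycp2 or Smc1b, so these 2 genes were not analysed here. The study labelled total RNA of spermatogonia of types A and B, of spermatocytes at pachytene and of round spermatids, and hybridised each to all 3 designs, 12 arrays in all. The labels name no strain, age or isolation method and call each array a single sample. Every value below is therefore 1 array, differences come without an error between preparations, and no test was run.

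The synaptonemal complex is the protein zipper that joins paired homologous chromosomes along their length during meiotic prophase. Its lateral elements, which contain SYCP2 and SYCP3, form on chromosome axes built with cohesin rings, and its central region, which contains SYCP1, SYCE1 and SYCE2, closes between them. Germ cells entering meiosis replace or supplement mitotic cohesin subunits with meiotic ones: REC8 in place of RAD21, SMC1B in place of SMC1A, and STAG3 in place of STAG1 and STAG2. TERB1 fastens telomeres to the nuclear envelope so that chromosomes can be moved and paired. In the mouse the complex is complete in pachytene spermatocytes and is gone in round spermatids. The steps measured here are those of transcripts, and the stages between type B spermatogonia and pachytene, in which the complex assembles, were not sampled.

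Signals are in arbitrary units after each array was scaled to the same trimmed mean, and a floor of 50.01 to 50.03 units marks what was treated as not distinct from background. Of 228 readings of bacterial and yeast negative controls 22 exceeded that floor, and the highest on an array lay between 12.9 and 103.5 units. A technical spread was taken from control probe sets present on all 3 designs: the SD of the log2 ratio was 0.23 for type B over type A spermatogonia, 0.22 for pachytene spermatocytes over type B spermatogonia and 0.40 for round spermatids over pachytene spermatocytes. It covers the array and not the cell preparation. It rests on 23 or 24 control probe sets over the floor at each step, and the spread of weak signals was not measured separately. Fewer cells of a type and less RNA per cell cannot be told apart in such samples.

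Markers of the labelled germ cells were detected on the arrays of all 4 cell types, and markers of somatic cells were detected beside them, in pachytene spermatocytes as well as in spermatogonia. Markers of undifferentiated and type A spermatogonia summed to 1967 in type A, 1546 in type B, 431 in pachytene spermatocytes and 857 in round spermatids. Of these, Sall4 alone read 647 in type B and 588 in round spermatids. For type B over type A its log2 ratio was 1.38, and its other probe sets gave -1.15 and -2.05. Kit was in this list and in the next. Markers of differentiating spermatogonia summed to 2528, 1702, 2547 and 3905, of which Dmrtb1 alone read 2376 in pachytene spermatocytes and 3559 in round spermatids. Of 5 of these markers with a signal at the step to pachytene, 4 (Dmrt1, Stra8, Kit and Sohlh2) were at least 2-fold lower there, and 0 of 6 differed by 2-fold between type A and type B. Of 8 measured pachytene markers 8 exceeded the floor in pachytene spermatocytes, with a summed signal of 37969, against 4 and 1043 in type A and 3 and 859.6 in type B spermatogonia. In round spermatids all 8 did so too, with a sum of 35967. Count and sum thus set pachytene spermatocytes apart from spermatogonia and not from round spermatids. By gene, 2 of the 8 were at least 2-fold lower in round spermatids, Mybl1 (5.67-fold) and Tdrd6 (2.07-fold), and 1 higher, Pgk2 (7.52-fold). Of all genes 13.7% were that much lower at this step and 10.5% higher. The lactate dehydrogenase gene Ldhc read 2.9 in type A, 1.7 in type B, 8691 in pachytene spermatocytes and 10651 in round spermatids, and the meiotic cyclin gene Ccna1 read 3.4 and 2.2 in type A and type B. Of 9 measured round spermatid markers the summed signal was 317 in type A, 401 in type B, 5041 in pachytene spermatocytes and 44453 in round spermatids. Of 10 Sertoli cell markers 9, 9, 8 and 4 exceeded the floor in these 4 cell types, with sums of 7868, 5863, 3772 and 1083; in pachytene spermatocytes Clu read 1717 and Ctsl 1003. Of 10 myoid and fibroblast markers 10, 10, 5 and 4 did, with sums of 7628, 15477, 596 and 713. The sums for 6 Leydig cell markers were 434, 718, 702 and 209, Cyp17a1 being highest in pachytene spermatocytes at 366. They were, for 6 leukocyte markers, 277, 555, 141 and 266, the antigen gene Ptprc being at 3.3 to 6.7 throughout. Amh of immature Sertoli cells lay under the floor in every cell type. The part of these other cells in the signals below was not tested.

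The 7 measured genes divided into opposite patterns around pachytene. Sycp1, Syce2 and Rec8 read lower in pachytene spermatocytes than in each of the other 3 cell types, and Syce1 and Stag3 read higher there than in each of the others. Sycp3 and Terb1 were also counted as highest there by the probe set that represents each gene. However, the Sycp3 signal lay within background, and the second Terb1 probe set was highest in type B under the main scaling. Among 13003 genes that exceeded the floor somewhere, 19.1% read lowest and 20.1% highest in pachytene spermatocytes under the same rule. From type B spermatogonia to pachytene spermatocytes, Syce1 and Stag3 were at least 2-fold higher and Syce2 and Rec8 at least 2-fold lower, that is 2 of 7 in each direction, where 17.1% of 12281 genes were that much higher and 23.2% that much lower. From pachytene spermatocytes to round spermatids, Sycp1, Syce2 and Rec8 were at least 2-fold higher, 3 of 7 against 10.5% of 11203 genes, and Terb1 was at least 2-fold lower, 1 of 7 against 13.7%. Between the spermatogonia, 0 of 6 genes with a signal over the floor differed by 2-fold in either direction, against 3.92% of 11951 genes higher and 3.94% lower in type B. The median log2 ratio of the genes was 0.00 at this step, 0.27 at the step to pachytene and -0.27 at the step to round spermatids, beside 0.01, -0.28 and -0.06 over all genes. At the steps to and from pachytene the middle gene was Sycp3, whose value is a bound.

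**Figure D1:**
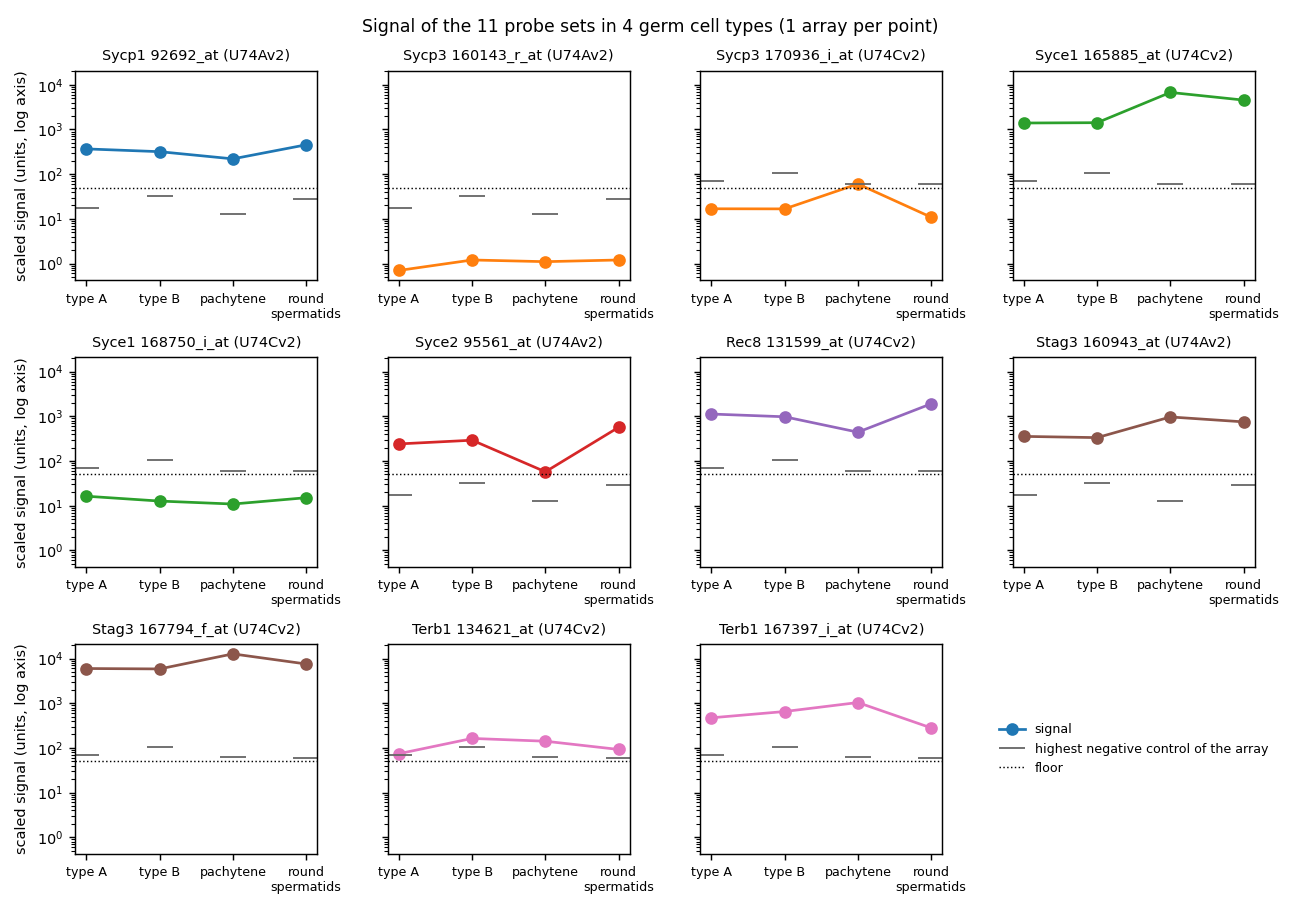
Scaled signal (log axis) of each of the 11 probe sets in the 4 cell types (horizontal axis), 1 array per point, with the floor as a dotted line and the highest negative control of each array as a dash. In pachytene spermatocytes Syce2 reads 57.4 and Rec8 443, their lowest, Syce1 165885_at reads 6753, its highest, and both Sycp3 probe sets lie at or under the negative controls.

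The promoters of the genes were read beside these patterns, and 4 are shown that hold an E-box. Of these genes Sycp1 and Syce2 read lowest in pachytene spermatocytes and Stag3 highest, while Sycp3 lay within background. Promoters were taken from RefSeq (build GRCm38.p6), 250 bases before to 50 after the start of transcription, in the direction of transcription. All 9 genes matched. Capitals mark matches on either strand to the E2F family core GCGGGAA (which reads TTCCCGC on the other strand), to the palindromic E-box CACGTG, and to CNCCTCAG (which reads CTGAGGNG on the other strand), a motif given for STRA8, the factor of meiotic entry. Each sequence is named with its position and strand.
Sycp1, chr3:102936051-102936350, minus: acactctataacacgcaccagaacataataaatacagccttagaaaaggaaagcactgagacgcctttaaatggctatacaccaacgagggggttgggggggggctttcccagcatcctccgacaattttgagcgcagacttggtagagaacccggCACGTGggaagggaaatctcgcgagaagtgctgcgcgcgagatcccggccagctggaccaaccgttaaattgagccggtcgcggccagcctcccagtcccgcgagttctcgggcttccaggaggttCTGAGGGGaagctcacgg
Sycp3, chr10:88459337-88459636, plus: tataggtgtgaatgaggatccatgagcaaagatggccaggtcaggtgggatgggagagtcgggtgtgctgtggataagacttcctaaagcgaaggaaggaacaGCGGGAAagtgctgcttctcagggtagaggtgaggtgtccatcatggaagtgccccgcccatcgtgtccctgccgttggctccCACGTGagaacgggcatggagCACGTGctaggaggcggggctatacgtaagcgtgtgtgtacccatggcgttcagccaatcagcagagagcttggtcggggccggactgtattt
Syce2, chr8:84872008-84872307, plus: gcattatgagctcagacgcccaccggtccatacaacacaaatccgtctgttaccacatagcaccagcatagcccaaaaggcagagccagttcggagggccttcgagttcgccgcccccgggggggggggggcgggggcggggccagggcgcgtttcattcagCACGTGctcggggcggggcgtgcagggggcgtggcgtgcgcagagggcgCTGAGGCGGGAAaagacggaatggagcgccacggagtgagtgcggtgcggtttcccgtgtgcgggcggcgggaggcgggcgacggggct
Stag3, chr5:138280259-138280558, plus: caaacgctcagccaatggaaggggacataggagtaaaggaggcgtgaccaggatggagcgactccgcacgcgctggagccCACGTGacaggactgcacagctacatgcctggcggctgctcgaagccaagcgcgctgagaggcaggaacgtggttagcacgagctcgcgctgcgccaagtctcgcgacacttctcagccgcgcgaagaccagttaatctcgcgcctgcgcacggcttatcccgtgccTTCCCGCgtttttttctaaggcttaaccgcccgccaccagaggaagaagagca

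The E-box, bound among others by MGA with MAX, which keep meiotic genes off in cells outside meiosis, stood in 4 of the 9 genes, Sycp1, Sycp3, Syce2 and Stag3, and in 8.09% of 27025 genes with promoters of this length. In Sycp3 it occurred at 64 and at 43 bases before the start. The E2F core stood in 4 of 9, Sycp3, Syce2, Smc1b and Stag3, and in 5.29% of all genes; in Stag3 its first letter lay 3 bases before the start and in Smc1b 48. The STRA8 motif stood in 2 of 9, Sycp1 and Syce2, and in 9.12% of all genes, and in Syce2 it overlapped the E2F core. The Myb family core CAGTTG and the cAMP response element TGACGTCA were in 0 of the 9 genes, and in 15.4% and 2.03% of all genes. Syce2 has a further listed start upstream of the one shown, whose window held none of these motifs. Syce2 and Stag3 each held an E-box and an E2F core, the latter as GCGGGAA in Syce2 and as TTCCCGC in Stag3. A match describes letters and not binding, and the part of these motifs in the signals was not tested. The windows of the 9 genes had a G+C content between 54.7% and 69.3%, beside a median of 52.7% over 32851 promoters.

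Sycp1 encodes the transverse filament that spans the central region. Its probe set 92692_at on U74Av2 (the gene is on chromosome 3) read 368 in type A, 319 in type B, 219.99 in pachytene spermatocytes and 454 in round spermatids. All 4 signals were well over the highest negative control of their arrays, 32.7 at most. The pachytene signal was the lowest and the round spermatid signal the highest. Against type B its pachytene signal was 1.45-fold lower, a log2 ratio of -0.53 that came to -0.01 under a common median and turned to 0.24 under scaling to spiked bacterial transcripts. It was 2.06-fold higher in round spermatids than in pachytene spermatocytes, 2.61 times the technical SD; the log2 ratio of 1.05 was 0.97 with quantile normalization and 0.78 under spike-in scaling, both under 2-fold. Type A and type B spermatogonia differed by 0.90 technical SD, and type A spermatogonia and round spermatids by 0.62, so neither pair stood apart.

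Sycp3, of the lateral elements, was hardly measured. Its probe set 160143_r_at on U74Av2 read between 0.70 and 1.2 units in the 4 cell types. Its other probe set, 170936_i_at on U74Cv2, read 16.8 in type A, 16.7 in type B, 60.4 in pachytene spermatocytes and 10.9 in round spermatids. Only the pachytene signal exceeded the floor, and it lay under the highest negative control of that array, 61.2. Pachytene spermatocytes were thus at least 1.21-fold higher than type B spermatogonia on this scale, a bound within the range of background. The ending _r_ marks a probe set for which the maker's selection rules were dropped, and _i_ one with an incomplete set of unique probes. No level of Sycp3 distinct from background can be given for any cell type from these arrays.

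Syce1 and Syce2 belong to the central element, and their signals ran in opposite directions. Syce1 165885_at on U74Cv2 (chromosome 7) read 1396 in type A, 1419.5 in type B, 6753 in pachytene spermatocytes and 4549.7 in round spermatids. The spermatogonia differed by a log2 ratio of 0.02. Pachytene spermatocytes were 4.76-fold higher than type B spermatogonia, 10.1 times the technical SD, and the ratio was above 0 in every alternative that gave a value, between 1.13 and 3.02 on the log2 scale; its second probe set gave none. Round spermatids were 1.48-fold lower than pachytene spermatocytes, 1.42 times the technical SD, and 3.21-fold higher than type B spermatogonia. A second Syce1 probe set, 168750_i_at on the same arrays, read between 10.9 and 16.3 in all 4 cell types and so gave no ratio.

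Syce2 95561_at on U74Av2 (chromosome 8) read 242 in type A, 292 in type B, 57.4 in pachytene spermatocytes and 569 in round spermatids. The pachytene signal was close to the floor, while the highest negative control of that array read 12.9. Its pachytene signal was 5.09-fold lower than that of type B and 4.21-fold lower than type A. Round spermatids were 9.91-fold higher than pachytene spermatocytes and 1.95-fold higher than type B spermatogonia. Both steps kept their direction under the alternatives of scaling and floor. Log2 ratios lay between -2.35 and -1.55 for the first and between 2.51 and 3.32 for the second. The alternatives of probe set could only repeat the main values. Syce2 had the widest range of the 7 genes, in the direction opposite to Syce1, and it has no further probe set by which to check it.

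Rec8 is the kleisin that closes the meiotic cohesin ring and is cleaved when homologous chromosomes and then sister chromatids part. Its probe set 131599_at on U74Cv2 (chromosome 14) read 1127 in type A, 979 in type B, 443 in pachytene spermatocytes and 1908 in round spermatids. The order of the cell types was that of Sycp1. Pachytene spermatocytes were 2.21-fold lower than type B spermatogonia, a log2 ratio of -1.14 that came to -0.72 under a common median and to -0.38 under spike-in scaling. Round spermatids were 4.31-fold higher than pachytene spermatocytes, with a log2 ratio between 1.82 and 2.54 over the alternatives of scaling and floor. Rec8 has no further probe set, so the alternatives of probe set repeat the main value. The spermatogonia differed by 0.89 technical SD, and round spermatids and type A spermatogonia by 1.55.

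Stag3, the meiotic partner of the cohesin ring, was measured on different designs, and its probe sets gave the same order of cell types. Probe set 160943_at on U74Av2 read 356 in type A, 334 in type B, 969.7 in pachytene spermatocytes and 753 in round spermatids. Probe set 167794_f_at on U74Cv2 read 5977, 5855, 12714 and 7556 in the same order. Both were level between the spermatogonia, with log2 ratios of -0.09 and -0.03. Pachytene spermatocytes were 2.90-fold and 2.17-fold higher than type B spermatogonia. Round spermatids were 1.29-fold and 1.68-fold lower than pachytene spermatocytes, 0.91 and 1.88 times the technical SD. The step to pachytene stayed above 0 in every alternative that gave a ratio and was under 2-fold with quantile normalization, at a log2 ratio of 0.56 on U74Cv2. The ending _f_ marks a probe set whose probes also match related sequences.

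Terb1, the telomere adaptor on chromosome 8, had probe sets that disagreed in size and, under the main scaling, in direction at the step to pachytene. Probe set 167397_i_at on U74Cv2 read 472 in type A, 652 in type B, 1036 in pachytene spermatocytes and 281 in round spermatids. Probe set 134621_at on the same arrays read 74.2, 163, 141 and 92.3. The first peaked in pachytene spermatocytes and the second in type B spermatogonia. Type B over type A was 1.38-fold by the first and 2.20-fold by the second. Pachytene over type B was 1.59-fold higher by the first and 1.15-fold lower by the second, the latter 0.93 technical SD. That log2 ratio of the second, -0.21, turned to 0.22 under a common median, 0.56 under spike-in scaling and 0.03 with quantile normalization. Under these scalings both probe sets read higher in pachytene spermatocytes than in type B. Round spermatids were lower than pachytene spermatocytes by both, 3.69-fold and 1.53-fold. The signals of the second probe set in type A lay at 74.2 where the highest negative control read 69.1, so its ratios rest on weak signals.

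**Figure D2:**
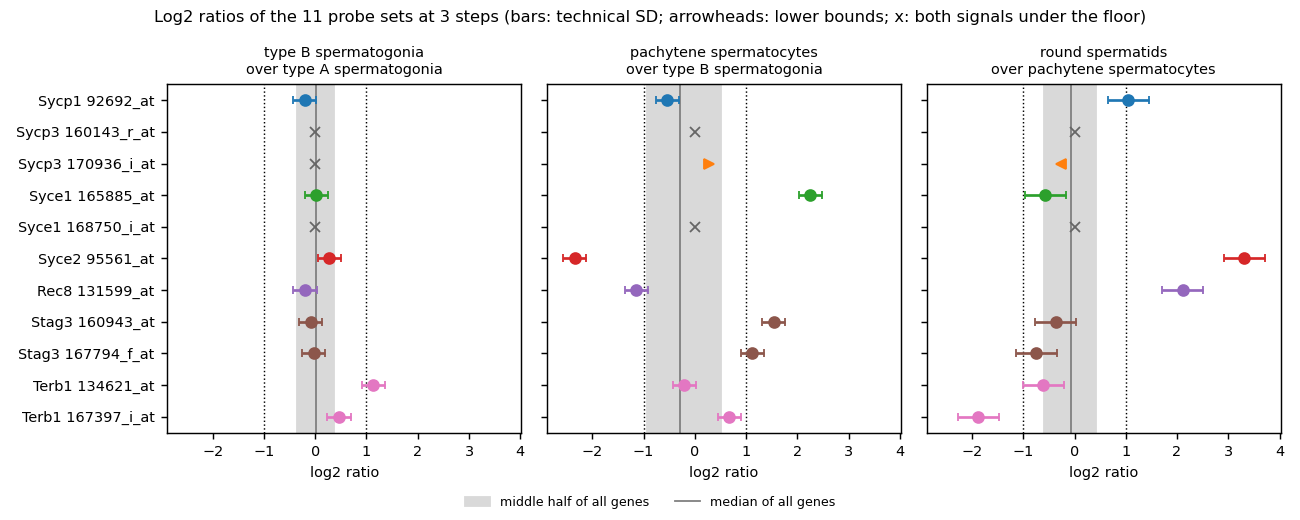
Log2 ratio of each probe set (horizontal axis) at the 3 steps between neighbouring sampled cell types; points carry the technical SD, arrowheads are lower bounds, crosses mark probe sets under the floor on both sides, the dotted lines mark 2-fold and the grey band the interquartile range of all genes. At the step to pachytene Syce1 stands at 2.25 and Syce2 at -2.35, and at the step to round spermatids Syce2 and Rec8 stand at 3.31 and 2.11.

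Agreement within a gene could be judged for 2 genes, Stag3 and Terb1, because in Syce1 and Sycp3 a probe set stayed under the floor throughout. Over the 3 steps, 5 of these 6 pairs of log2 ratios had the same sign and 1 differed by more than 2-fold, Terb1 at the step to round spermatids. The pair of opposite sign, Terb1 at the step to pachytene, had the same sign under a common median, spike-in scaling and quantile normalization. The Stag3 ratios differed by 0.06, 0.42 and 0.39 on the log2 scale at the 3 steps, and the Terb1 ratios by 0.67, 0.88 and 1.27. Over all genes with more than 1 such probe set, the median difference in a pair was 0.47, 0.71 and 0.61, and 17.9%, 35.3% and 30.0% of pairs differed by more than 2-fold. Pairs had the same sign in 56.9%, 70.6% and 61.2% of cases. Stag3 thus lay under the median difference at each step and Terb1 over it at each step.

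**Figure D3:**
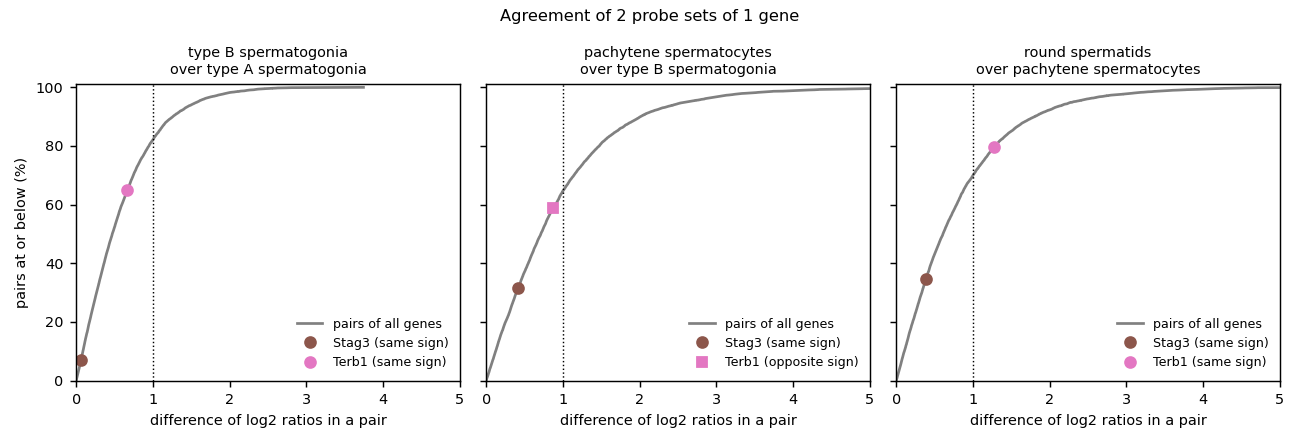
Cumulative share of probe set pairs (vertical axis, %) by the difference of their log2 ratios (horizontal axis) at each step, for all genes (grey line) and for Stag3 and Terb1 (points; a square marks opposite signs). The Stag3 pair lies at 0.06, 0.42 and 0.39 and the Terb1 pair at 0.67, 0.88 and 1.27, opposite in sign at the step to pachytene under the main scaling.

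The mitotic counterparts of the meiotic cohesin subunits were lower in pachytene spermatocytes. Of the 5 measured mitotic or shared subunits 4 were at least 2-fold lower there than in type B spermatogonia and 0 at least 2-fold higher, with a median log2 ratio of -2.06, beside 23.2% and 17.1% of all genes and a median of -0.28. Rad21, the kleisin of mitotic cohesin, read 1104 in type A, 824 in type B, 182 in pachytene spermatocytes and 110.2 in round spermatids, 4.54-fold lower at the step to pachytene. Smc3, the ring subunit common to both kinds of cohesin, read 292, 215, 24.5 and 236, at least 4.30-fold lower in pachytene and at least 4.71-fold higher in round spermatids. The X-linked gene Smc1a read 539.9, 404, 109 and 125, and was 3.69-fold lower in pachytene. Its other probe sets lay under the floor and gave no ratio. The X-linked gene Stag2 read 285, 237, 57.1 and 91.1 and was 4.16-fold lower, whereas its other probe set gave a log2 ratio of -0.19. Stag1 read 265, 171, 105 and 106, a log2 ratio of -0.70 at the step to pachytene, with -0.72 and -0.66 from its other probe sets and 0.07 under spike-in scaling. At this step Rad21, Smc3, Smc1a and Stag2 kept their direction in every alternative that gave a value. Their weakest log2 ratios were -1.41, -1.10, -0.63 and -0.19. Rad21 and Smc3 have no further probe set, so the alternatives of probe set could not change their values. Between the spermatogonia all 5 log2 ratios lay between -0.63 and -0.26, though other probe sets gave 0.34 and 0.45 for Stag1 and 0.09 for Stag2. The summed myoid and fibroblast signal was 15477 in type B and 596 in pachytene spermatocytes, and its part in these differences was not tested.

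**Figure D4:**
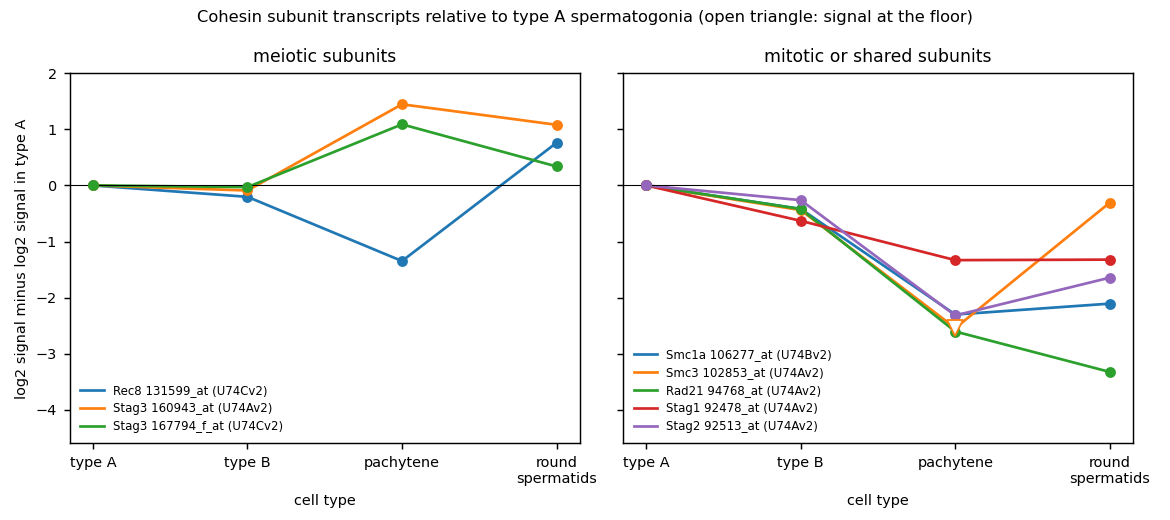
Log2 signal minus the log2 signal in type A spermatogonia (vertical axis) for 2 meiotic cohesin genes (left) and 5 mitotic or shared ones (right) in the 4 cell types (horizontal axis), 1 array per point, open triangles at the floor. In pachytene spermatocytes Stag3 stands at 1.45 (160943_at) and 1.09 and Rec8 at -1.35, and all 5 mitotic or shared subunits lie below 0 there.

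The list of partner genes, these subunits included, held 53 genes, 38 of them with a probe set. At the step to pachytene 8 of 36 with a signal over the floor were at least 2-fold higher and 9 lower, beside 17.1% and 23.2% of all genes. At the step to round spermatids 2 of 35 were higher and 8 lower, beside 10.5% and 13.7%. Between the spermatogonia 1 of 35 was higher and 2 lower, beside 3.92% and 3.94%. At the step to pachytene these shares lay near those of all genes. Of 5 measured axis and synaptonemal complex genes, none was 2-fold higher at any of these steps. The central element gene Tex12 read 1142, 968, 866 and 416 and was 2.08-fold lower in round spermatids than in pachytene spermatocytes, and Syce3 read 162, 256, 166 and 240.3. Cdk2, a kinase found at meiotic telomeres, read 295, 209, 326 and 87.3, 3.73-fold lower in round spermatids. The axis remodelling ATPase gene Trip13 was at least 2.85-fold lower in pachytene than in type B cells, and the axis gene Hormad2 at least 2.26-fold lower in type B than in type A. The Hormad2 signal in type A was 113, over the highest negative control of its own array, 69.1. On the type B array that control read 103.5, so a type B signal close to that of type A would not be distinct from background. Of the nuclear envelope genes the lamin gene Lmnb1 was at least 2.15-fold lower in round spermatids than in pachytene spermatocytes, with a log2 ratio of 0.11 from another probe set, and Sun1 read 352, 315, 351 and 213.

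Of 13 genes that load, release, acetylate or protect cohesin, 3 were at least 2-fold higher and 1 lower at the step to pachytene, beside 17.1% and 23.2% of all genes. The loader gene Nipbl was 6.40-fold higher in pachytene spermatocytes than in type B, with log2 ratios of 2.10 and 0.82 from its other probe sets. The acetyltransferase gene Esco2 was 8.82-fold lower in pachytene and 3.04-fold higher from there to round spermatids, an order of cell types that placed pachytene lowest as in Syce2 and Rec8. The protector gene Sgo2a was 3.33-fold lower in round spermatids than in pachytene spermatocytes. Meikin, of meiotic kinetochores, was at least 2.43-fold higher in pachytene, at 121 units. The highest negative control read 61.2 on that array and 103.5 on the type B array. Ppp2r5c, a phosphatase subunit, was 18.8-fold higher in pachytene by 1 probe set and lower by 4 others, with log2 ratios between -1.17 and -0.50. The securin gene Pttg1 was 2.01-fold higher in type B than in type A by 1 probe set and had a log2 ratio of 0.11 by another.

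Of 9 genes of meiotic entry and its transcription, 5 were at least 2-fold higher and 3 lower at the step to pachytene, beside 17.1% and 23.2% of all genes. Stra8, the retinoic acid target that starts the meiotic programme, read 482 in type A, 493 in type B, 17.2 in pachytene spermatocytes and 88.9 in round spermatids, at least 9.85-fold lower in pachytene. Pcgf6, a Polycomb subunit, was 13.4-fold, Tcfl5, a transcription factor of pachytene, 13.4-fold, Mybl1, which drives pachytene transcription, 4.29-fold, Meioc 2.09-fold and Ythdc2 2.06-fold higher in pachytene. The repressor genes Mga and E2f6 were at least 4.06-fold and 2.20-fold lower, and the other Mga probe sets gave log2 ratios of -0.09 and -2.39. In round spermatids Mybl1 was 5.67-fold, Pcgf6 5.32-fold, L3mbtl2 3.69-fold and Tcfl5 2.48-fold lower than in pachytene spermatocytes. Ythdc2 was also 2.39-fold lower in type B than in type A, and its type B signal of 54.0 was below the top negative control there.

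Profiles like those of the members were sought among genes of the same design whose highest cell type was at least 4-fold over the lowest, by the distance between centred log2 signals over the 4 cell types. Syce1, Syce2 and Rec8 had such a range. Closest to Syce2 was the cyclin gene Ccnd3, at a distance of 0.15, which read 226, 296, 17.1 and 543 from type A to round spermatids. Its pachytene signal lay under the floor and was set to it, so this distance rests in part on the floor. Pdk3 at 0.57 and Grcc10 at 0.62 followed. Closest to Rec8 were Klhl32 at 0.29, Zfp704 at 0.38 and Pip5kl1 at 0.47. Zfp704 read 31.3 in pachytene spermatocytes, also under the floor. Closest to Syce1 were 1700017G19Rik at 0.09, 4930556M19Rik at 0.12 and Hoxb5os at 0.13. In type A and type B 1700017G19Rik read 2.2 and 2.9 and Hoxb5os 18.5 and 15.3, all under the floor. Syce1 read 1396 and 1419.5 there, so the likeness of these genes to Syce1 rests on the floor. Of 1188 genes 12 lay within a distance of 1 from Syce2, of 983 genes 19 from Rec8 and 84 from Syce1. Genes under the floor in spermatogonia enter the 84, so it does not show that the profile of Syce1 was the more common. With 4 arrays such likeness is a description, and signals under the floor were set to it.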

How the data were processed

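Signals of 12 arrays were analysed, 1 per cell type and design. The deposited files hold 1 linear intensity for each probe set. Per the submitters' processing notes the authors used MAS5. Its version was not named in the sources at hand. On every array the deposited 2% trimmed mean lay between 125.0 and 125.1.

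Arrays were brought to the geometric mean of the trimmed means within their design. The floor was 0.4 of that mean, and lower values were set to it before log2 was taken. A ratio with 1 side at the floor is a lower bound. Of 36701 probe sets apart from controls, 29131 had 1 symbol, 724 several and 6846 none. A gene was represented by its probe set with the highest mean signal. Ratios are within a design. A gene was counted at a step if it exceeded the floor in at least 1 of its cell types.

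The members, the lists and the rules were chosen with earlier results of these data known. Named were all members, up to 4 genes of each partner sublist in each direction and up to 3 markers of each list. The mitotic cohesin genes and the 3 nearest profiles were named too. Amh, Ptprc, Ccna1, Kit, Sohlh2, Syce3, Sun1, Pgk2, Spaca1 and, as a marker, Mybl1 were added after their values were seen. So was Ythdc2 at the step to pachytene, the fifth gene of its list. The 11 alternatives covered scaling, floor, probe set and threshold. The counting was tested on simulated data. Python 3.11.15, numpy 2.4.6, pandas 2.3.3 and scipy 1.17.1 were used.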

Additional observations from a re-analysis of the deposited data

How the results depend on the processing

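The 11 alternatives changed counts of members at the 2-fold threshold, and none reversed a member's ratio of at least 2-fold. Smaller ratios did change sign. Under spike-in scaling the log2 ratio of type B over type A came to -0.70 for Syce1, -0.55 for Syce2 and -0.26 for Terb1 167397_i_at, from 0.02, 0.28 and 0.47. Sycp1 and Terb1 134621_at changed sign at the step to pachytene under some scalings. Of 180 probe set log2 ratios recomputed with other scalings and floors, 139 moved by less than the technical SD and 41 by more. Many of the 139 could not move. The deposited arrays already shared a trimmed mean, and another floor leaves ratios of signals over it unchanged. Under spike-in scaling most of the ratios moved by more. Members at least 2-fold higher at the step to pachytene numbered 1 in place of 2 with quantile normalization, with the second probe set of each gene and at 4-fold, and 3 under a common median, under spike-in scaling, with the floor halved and with no floor. Members at least 2-fold lower there numbered 1 in place of 2 under a common median, under spike-in scaling and at 4-fold. At the step to round spermatids the number at least 2-fold lower was 2 in place of 1 with quantile normalization, with the floor halved and with no floor, and 0 with the second probe set, without special probe set endings and at 4-fold. The number at least 2-fold higher there was 2 in place of 3 under spike-in scaling, with quantile normalization and at 4-fold. Between the spermatogonia 1 in place of 0 was 2-fold lower under spike-in scaling, and 1 was 2-fold higher with the second probe set and without special endings (Terb1, where the latter leaves 134621_at). Members highest in pachytene spermatocytes numbered 1 with the second probe set and 2 without special endings, in place of 4, and 3 with the floor doubled. Under spike-in scaling the members lowest there numbered 2 in place of 3, a check chosen after seeing the data, and the median log2 ratio of all genes was -0.76, 0.35 and -0.14 at the 3 steps in place of 0.01, -0.28 and -0.06. With no floor, 5 of 12 member pairs had the same sign (41.7%) in place of 5 of 6 (83.3%), since probe sets within background then enter. The cause of the other changes was not tested. Of the mitotic or shared cohesin subunits 2 in place of 4 were 2-fold lower with the second probe set. No paired analysis was possible because each cell type has 1 array per design. Signal over background limits Sycp3, the pachytene signal of Syce2 and Terb1 134621_at.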
